A study of Homo sapiens with 6 samples.

Results

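The subunits of the N-terminal acetyltransferases were followed in SiHa cells, an established human line from a squamous carcinoma of the cervix. The set held 10 of the 48162 genes in the count table, namely NAA10, NAA15, NAA16, NAA20, NAA25, NAA30, NAA35, NAA40, NAA50 and NAA60. It was chosen by the rise of NAA15, about 1.5-fold between the conditions compared here, so the change of NAA15 is given as a description with no test, and the other 9 genes were taken because they encode its partners, its paralog and the enzymes of the related complexes. All samples were RNA sequencing libraries of transfected SiHa cells harvested 48 h after transfection. In 3 samples the cells received si-CNN3#1, a small interfering RNA against calponin 3, an actin-binding protein, and in the other 3 they received the control si-NC. Every comparison therefore rests on 1 siRNA in 1 cell line, so loss of CNN3 and any other action of either siRNA cannot be told apart. The study describes the samples of each group as independent assays.

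Most human proteins carry an acetyl group on their N terminus, which is added while the chain leaves the ribosome. NatA is built from the catalytic subunit NAA10 and the large auxiliary subunit NAA15, which holds NAA10 and anchors the pair at the ribosome, and it acts on the small residues exposed once the initiator methionine has been cut off. NAA16 is a paralog of NAA15 that can take its place beside NAA10, and NAA50, the catalytic subunit of NatE, docks onto NAA15. NatB (NAA20 with NAA25) and NatC (NAA30 with NAA35 and NAA38) act on other N termini that keep their methionine, whereas NAA40 and NAA60 work without a large auxiliary subunit, the first on histones and the second at the Golgi membrane.

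The comparison is set by the sense strands of both siRNAs, shown with the bases in capitals that pair with guide bases 2 to 8, the seed, taking each guide to be complementary to its sense strand over the whole length.
si-CNN3#1: gcagaugggaaCCAACAAa
si-NC: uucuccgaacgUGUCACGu
Of the 10 genes, only NAA15 held the si-NC seed match in its principal GENCODE transcript. The match began 61 bases after the last coding base, a distance that includes the stop codon. It lay in the 3′ UTR and is shown in capitals in 30 bases of that transcript.
NAA15 site: auauaauauuuuUGUCACGcaccugcugca
The base after the match was C. NAA15 held no match to the si-CNN3#1 seed, which had 1 match in the 3′ UTR of NAA30, of NAA40 and of NAA50, 1 in the coding sequence of NAA35 and 2 in that of NAA60. The other members, NAA10, NAA16, NAA20 and NAA25, held neither. Outside the 10, the related genes NAA80 and HYPK, described below, also held the si-NC match. It lay in the coding sequence of NAA80, and outside both the coding sequence and the 3′ UTR of HYPK. These searches were chosen after the values were seen, and a match is a description of the letters only.

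The targeted gene was checked first. The CNN3 read count was 1134, 1288 and 1234 in the si-NC samples and 490, 514 and 574 in the si-CNN3#1 samples. The groups did not overlap, and normalized CNN3 fell to 28.1 ± 2.95 CPM (SD, n = 3; CPM is the read count scaled to a common library size) from 55.2 ± 2.97, a log2 fold change of -0.97 (SE 0.055, adjusted p = 2.04e-20, quasi-likelihood test of edgeR, adjusted by the Benjamini-Hochberg method). The exact two-sided permutation test gave p = 0.1, the smallest that 3 samples against 3 allow. Total counts ran from 18147028 to 19026341 with si-CNN3#1 and from 20287139 to 24976517 with si-NC, so every control library was deeper. The epithelial markers KRT7, KRT8, KRT17, KRT18 and CDH1 were at 498, 608, 187, 147 and 36.6 CPM in si-NC, KRT19 and EPCAM at 5.04 and 6.25 CPM, and KRT5 had 4 to 11 counts per library. Of the 7 epithelial markers tested, KRT17 was called higher with si-CNN3#1 (log2 fold change 0.23) and KRT8 and KRT18 lower (-0.19 and -0.18, edgeR). Over all tested genes 13.3% were called, and nothing particular to the markers is read from these calls. The part of these markers in the members' values was not tested. PTPRC and VWF, markers of leukocytes and endothelium, had at most 18 counts in any library, CD3E had 23 to 46, and the fibroblast markers DCN and COL1A1 had 59 to 81 and 66 to 109. CD14 had 2190 to 3517 counts and was called lower with si-CNN3#1 (log2 fold change -0.30, adjusted p = 7.88e-10, edgeR). In si-NC, CD14 was at 149 CPM and PTPRC at 0.632 CPM, so CD14 is not read here as a measure of leukocytes. In bulk RNA of 1 cell line, a shift in the mix of its cells and a change of RNA per cell cannot be told apart.

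NAA15 was the member that set the choice, so its values here, the interval included, are a description and no test of the rise. Its normalized level was 96.0, 101 and 98.7 CPM in the si-CNN3#1 samples and 67.7, 64.3 and 69.3 CPM in the si-NC samples. All si-CNN3#1 samples lay above all si-NC samples, and the gap between the groups was wider than the spread within either. The means were 98.6 ± 2.54 and 67.1 ± 2.59 CPM, a 1.47-fold difference, or 0.56 on the log2 scale with a 95% interval of 0.48 to 0.63. These values rest on 1359 to 1941 counts per library. Among the 15860 tested genes, 355 (2.24%) had a log2 fold change at least as high as that of NAA15, and among the genes called higher 143 (14.6%) did. Without any one library the log2 fold change of NAA15 stayed between 0.52 and 0.58.

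**Figure D1:**
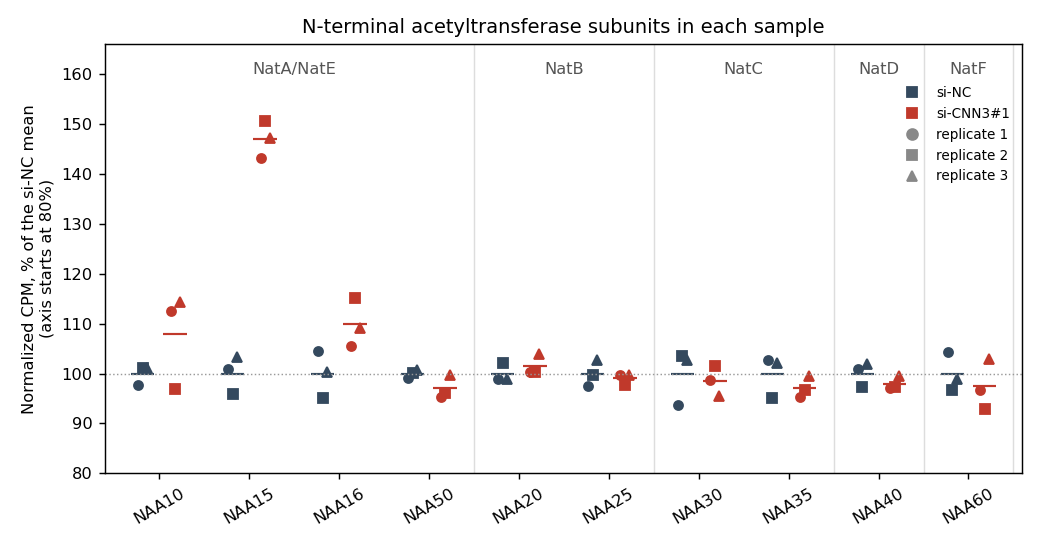
Normalized CPM of each of the 10 members in each sample, as a percentage of the mean of the si-NC samples of that gene (vertical axis, starting at 80%), with si-NC in dark blue, si-CNN3#1 in red, replicates by symbol and group means as short lines. NAA15 stands at 147% of the si-NC mean, and the means of the other members lie between 97.0% and 110%.

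Over all genes, 13.3% were called at an adjusted p of 0.05 or less, 6.17% higher and 7.14% lower with si-CNN3#1, and 28.2% had groups that did not overlap. Of the 10 members, 1 was called higher, NAA15, and 0 lower, and the groups of 2 members did not overlap, NAA15 and NAA16. NAA15 had been selected on this contrast, so nothing is read from that count. Of the other 9 members, 0 passed the threshold in edgeR's test, 0 passed it in DESeq2 and 0 in limma. In edgeR's test 1 of them, NAA16, had an unadjusted p under 0.05, as did 3978 of the 15860 tested genes. The median log2 fold change of these 9 members was -0.022, against 0.0023 over all tested genes, and they ranged from -0.044 to 0.14.

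The catalytic partner of NAA15 in NatA is NAA10. It had 12.9, 11.1 and 13.1 CPM with si-CNN3#1 and 11.2, 11.6 and 11.6 CPM with si-NC, so the second si-CNN3#1 sample fell below every control and the others above them. The log2 fold change of NAA10 was 0.11 (SE 0.085, 95% interval -0.061 to 0.28, adjusted p = 0.466, edgeR). It was 0.18 without the second si-CNN3#1 sample, and 0.075 and 0.064 without the first and the third, with no call in any of these. NAA10 had 213 to 289 counts per library, a coverage like that of NAA60 with 233 to 313. It shares 481 exon bases with ARHGAP4 on the same strand, a gene with 26 to 39 counts.

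NAA16, the paralog of NAA15, was measured at 38.8, 42.3 and 40.1 CPM with si-CNN3#1 and at 38.4, 35.0 and 36.9 CPM with si-NC. Its groups did not overlap, but the lowest si-CNN3#1 sample was only just above the highest control. The log2 fold change was 0.14 (SE 0.052, 95% interval 0.036 to 0.24) and missed the threshold (adjusted p = 0.0621, edgeR). Whether it passed rested on the libraries used. The adjusted p was 0.0499 without the first si-CNN3#1 sample and 0.0413 without the first si-NC sample. Without the second si-CNN3#1 or the second si-NC sample it was 0.284 or 0.296, each with a log2 fold change of 0.10. NAA16 passed the threshold in 4 of 17 alternative analyses, and its adjusted p in DESeq2 was 0.174. Scaling by total counts alone gave 0.16 with an adjusted p of 0.0325.

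NAA50, the catalytic subunit of NatE and the most abundant member, had 303, 305 and 317 CPM with si-CNN3#1 and 315, 318 and 320 CPM with si-NC. The groups overlapped, and the log2 fold change was -0.044 (SE 0.027, 95% interval -0.10 to 0.0097, adjusted p = 0.321, edgeR). With 5706 to 7910 counts per library this was the narrowest interval of the set.

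In NatB, the catalytic NAA20 was at 61.8, 61.8 and 64.0 CPM with si-CNN3#1 and 60.9, 62.9 and 60.9 CPM with si-NC. The auxiliary NAA25, which has the place in NatB that NAA15 has in NatA, was at 101, 98.8 and 101 CPM against 98.6, 101 and 104 CPM. Both overlapped between the conditions. The log2 fold change was 0.023 for NAA20 (95% interval -0.059 to 0.10, adjusted p = 0.798) and -0.009 for NAA25 (-0.078 to 0.06, adjusted p = 0.909, edgeR for both).

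In NatC, the catalytic NAA30 was at 49.5, 50.9 and 47.8 CPM with si-CNN3#1 and 46.9, 51.9 and 51.5 CPM with si-NC, and the auxiliary NAA35 at 49.5, 50.2 and 51.6 against 53.3, 49.4 and 53.0 CPM. Neither pair of groups was apart. Their log2 fold changes were -0.022 (95% interval -0.12 to 0.071) and -0.039 (-0.13 to 0.052), with adjusted p-values of 0.828 and 0.657 in edgeR's test. NAA38, the small auxiliary subunit of NatC and not among the 10, was at 45.2, 44.7 and 46.9 CPM against 42.0, 42.5 and 40.4 CPM. Its groups were apart, with a log2 fold change of 0.13 (SE 0.048) that missed the threshold (adjusted p = 0.0577, edgeR) and passed it in 5 of 17 alternative analyses. NAA38 shares 773 exon bases with CYB5D1 on the opposite strand, and without knowing the strand setting of the counting, reads of the pair cannot be told apart.

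The enzymes that work without a large auxiliary subunit did not differ detectably. NAA40, which acetylates histones H2A and H4, was at 68.1, 68.3 and 69.9 CPM with si-CNN3#1 and 70.8, 68.3 and 71.5 CPM with si-NC, a log2 fold change of -0.028 (95% interval -0.11 to 0.05, adjusted p = 0.722, edgeR). The Golgi enzyme NAA60 was at 12.6, 12.1 and 13.4 against 13.6, 12.6 and 12.9 CPM, a log2 fold change of -0.031 (-0.19 to 0.13, adjusted p = 0.861, edgeR). Both overlapped between the groups. NAA80, the actin acetyltransferase, was at 8.20 ± 0.43 CPM against 8.94 ± 1.38 (log2 fold change -0.13, adjusted p = 0.483, edgeR). Its log2 fold change was -0.23 without the first si-NC sample and -0.022 without the third. NAA80 had 146 to 224 counts per library. It shares 248 exon bases on the same strand with HYAL3, which had 234 to 360 counts, so the NAA80 count is uncertain.

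The remaining NatA relatives were weakly covered. The read count of NAA11, a paralog of NAA10, was 1, 0 and 0 in the control samples and 0, 0 and 2 in the si-CNN3#1 samples, and the gene was not tested. HYPK, a small regulator that binds NatA, had 23 to 45 counts per library and a log2 fold change of -0.19 (SE 0.23, adjusted p = 0.681, edgeR), which ran from -0.47 without the third si-CNN3#1 sample to -0.037 without the second. HYPK shares 2491 exon bases on the same strand with SERF2, which had 9617 to 12504 counts, so its count is uncertain.

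**Figure D2:**
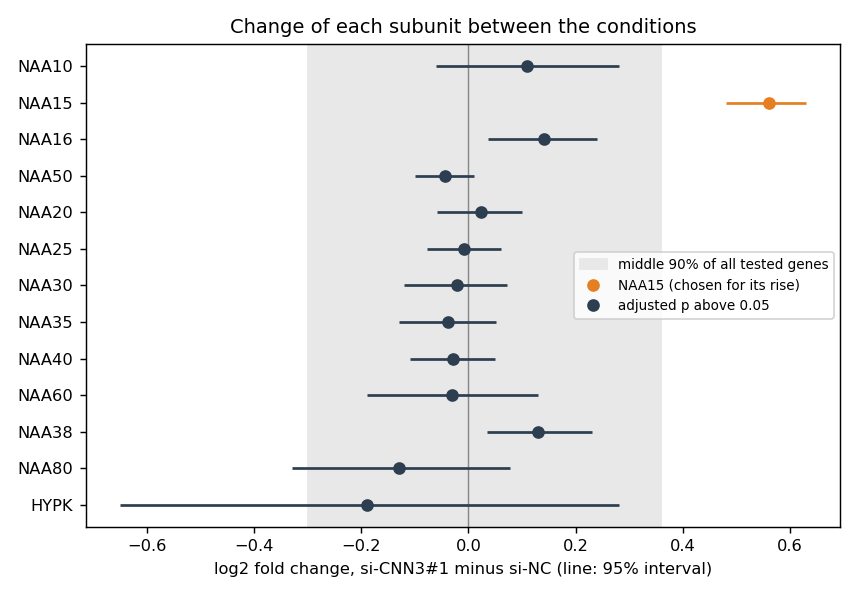
Log2 fold change of the 10 members and of NAA38, NAA80 and HYPK (horizontal axis, si-CNN3#1 minus si-NC), with points for the estimate and lines for the 95% interval, NAA15 in orange and the grey band from the 5th to the 95th percentile of all tested genes (-0.30 to 0.36). NAA15, chosen for its rise, is drawn at 0.56, and the estimates of the other members lie between -0.044 and 0.14.

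Levels between genes were compared per length, on the deposited FPKM (fragments per kilobase of gene length, scaled to the library total). In si-NC the order ran from NAA50 at 245 ± 2.66 FPKM through NAA20 at 55.9, NAA40 at 50.7, NAA25 at 37.3, NAA35 at 30.1, NAA15 at 29.7, NAA16 at 22.3, NAA30 at 14.8 and NAA60 at 13.9 to NAA10 at 13.1 FPKM. NAA35 and NAA15 overlapped in this order, as did NAA30 and NAA60, and the other neighbours did not. In si-CNN3#1 NAA15 had 42.8, 45.5 and 44.3 FPKM, which placed it above NAA25 (37.5 FPKM) and NAA35 (29.6 FPKM) and below NAA40 (50.3 FPKM), with no overlap. The order depended on the length used. The lengths behind the FPKM, such as 2240 bases for NAA15 and 1289 for NAA50, were shorter than the principal transcripts of 6222 and 6135 bases. Per kilobase of the principal transcript NAA50 was at 51.8 and NAA20 at 48.8 CPM in si-NC, and NAA15 stayed below NAA25 in both conditions.

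**Figure D3:**
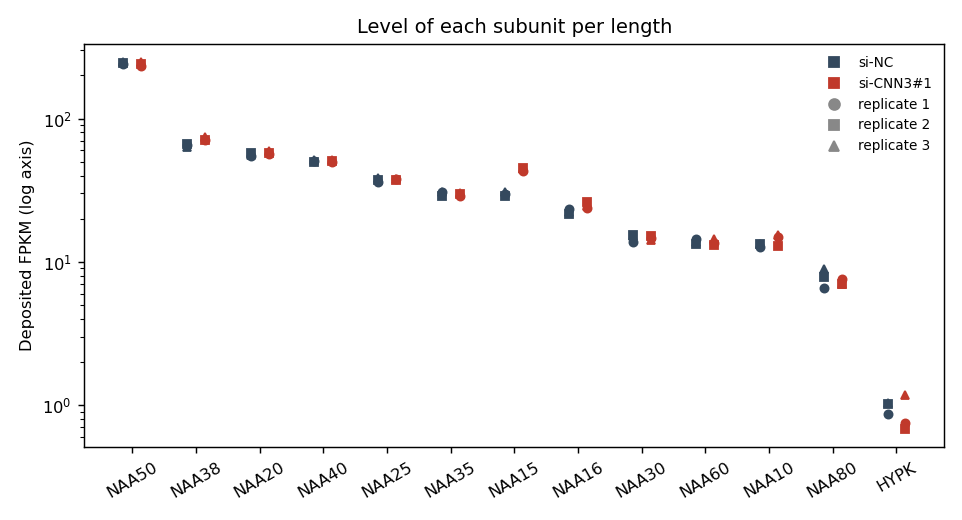
Deposited FPKM (vertical log axis) of each subunit gene in each sample, ordered by the si-NC mean, with si-NC in dark blue and si-CNN3#1 in red. NAA50 lies highest at 245 FPKM in si-NC, and NAA15 moves from 29.7 to 44.2 FPKM while the points of NAA25 and NAA35 beside it overlap between the conditions.

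The balance inside NatA was read from ratios of FPKM within each sample. The ratio of NAA15 to NAA10 was 2.87, 3.53 and 2.91 with si-CNN3#1 and 2.35, 2.14 and 2.31 with si-NC, without overlap. The ratio of NAA15 to NAA16 was 1.81, 1.74 and 1.79 against 1.29, 1.34 and 1.37, also without overlap, a 1.34-fold shift. NAA15 thus made up 64.0% ± 0.429 of the summed FPKM of these alternative auxiliary subunits with si-CNN3#1 and 57.1% ± 0.81 with si-NC. These shifts hold the rise on which NAA15 was chosen and were not tested. The ratios that left NAA15 out overlapped between the conditions. NAA16 to NAA10 was 1.75 ± 0.242 against 1.70 ± 0.115, NAA50 to NAA10 was 16.8 ± 1.49 against 18.6 ± 0.299, NAA25 to NAA20 was 0.652 against 0.667, and NAA35 to NAA30 was 2.01 against 2.05.

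The seed match of NAA15 was set beside those of other genes. Of 12697 tested genes with a transcript searched, 350 (2.76%) held the si-NC match in the 3′ UTR. Of these 31 (8.86%) were called higher with si-CNN3#1, against 7.08% of all genes searched, and 25 (7.14%) lower. No share called lower was computed for the genes searched. The 7.14% called lower over all 15860 tested genes covers a wider set. Their median log2 fold change was 0.003, and 5 of them (1.43%) reached that of NAA15, NAA15 included, against 1.65% of all genes searched. The part of the match in the NAA15 value was not tested.

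NAA15 lies on the plus strand of chromosome 4 at 139301455-139420033 (GRCh38, GENCODE release 29), and its principal transcript has 20 exons and 2598 coding bases. NDUFC1, a subunit of respiratory complex I, has 4 RefSeq starts on the opposite strand. The RefSeq start of NAA15 minus that of NDUFC1 is 271 and 295 bases for 2 of them, which lie upstream of NAA15, and -972 and -1046 bases for the others, which lie inside NAA15. The 200 bases that end just before the first annotated NAA15 base lie between the NAA15 start and the upstream pair of NDUFC1 starts, and they are shown because the genes on either side of them had unlike fold changes (chr4:139301255-139301454, plus strand, RefSeq, GRCh38.p14, 66% GC, with the GC box GGGCGG in capitals).
NAA15 upstream region: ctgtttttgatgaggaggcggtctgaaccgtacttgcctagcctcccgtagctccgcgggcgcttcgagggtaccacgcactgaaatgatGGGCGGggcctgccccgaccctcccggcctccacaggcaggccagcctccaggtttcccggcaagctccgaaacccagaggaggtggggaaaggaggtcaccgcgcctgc
Windows of 300 bases around the RefSeq start were available for 7 of the 10 members and were searched on both strands for 5 motifs. The GC box GGGCGG was in 6 of the 7, all but NAA16, and in 48.3% of 27305 genes. The E-box CACGTG was in the window of NAA15 alone, beyond the bases shown, and in 8.77% of genes. CCAAT was in that of NAA60 alone, against 39.7% of genes, and the CRE TGACGTCA (2.25% of genes) and the amino-acid response element TGATGNAA (4.46%) were in none of the 7.

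NDUFC1 was at 37.4, 38.6 and 40.6 CPM with si-CNN3#1 and 38.3, 37.8 and 36.9 CPM with si-NC. Its groups overlapped, with a log2 fold change of 0.046 (SE 0.051, adjusted p = 0.635, edgeR). It shares no exon bases with NAA15. Of the genes that start within 500 kb of NAA15, a window chosen after the values were seen, 6 were tested, and NOCT rose and SETD7 fell. Over all tested genes 13.3% were called, and nothing particular to the region is read from these calls. NOCT, which encodes the circadian protein nocturnin, starts at -285.7 kb from the NAA15 start and was at 8.70 ± 0.251 against 6.53 ± 0.601 CPM (log2 fold change 0.41, SE 0.10, adjusted p = 0.00374, edgeR). SETD7, a lysine methyltransferase gene at 305.2 kb on the other side, had a log2 fold change of -0.12 (adjusted p = 0.00917, edgeR), and lost the call without the second si-CNN3#1 sample (adjusted p = 0.0757) or the third si-NC sample (0.161), and in the 3 limma fits (0.150, 0.152 and 0.329). ELF2, RAB33B and MGST2 had log2 fold changes of -0.01, -0.042 and 0.038 with adjusted p-values of 0.933, 0.828 and 0.773.

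**Figure D4:**
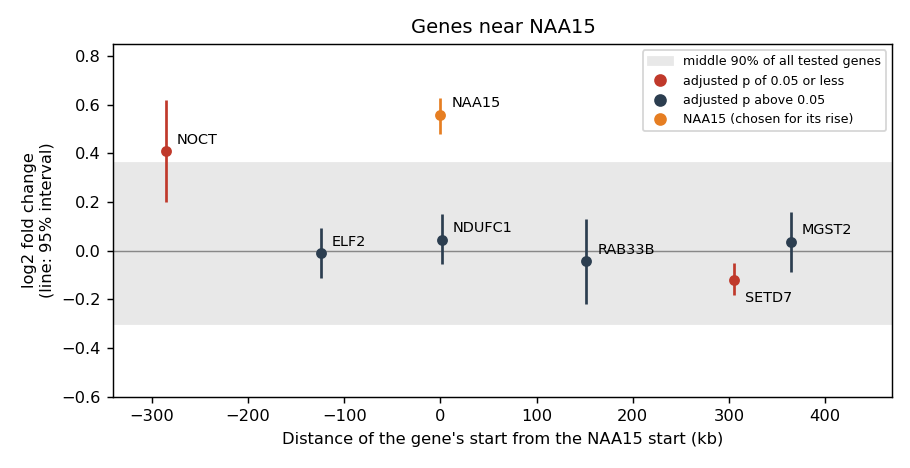
Log2 fold change of the tested genes near NAA15 (vertical axis, si-CNN3#1 minus si-NC, lines for the 95% interval) against the distance of their start from that of NAA15 in kb, with NAA15 in orange, genes past the threshold in red and the grey band for the middle 90% of all tested genes. NAA15, chosen for its rise, is drawn at 0.56 and NDUFC1 at 0.046, 1.1 kb away by its outermost start, inside NAA15, and NOCT at 0.41 lies above the band.

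The genes whose profile over the 6 samples was most like that of NAA15 were found by the root-mean-square distance of log2 CPM, each gene centred on its own mean, among 9794 genes of at least 10 CPM. They were IL18 (distance 0.0438), MIR4435-2HG (0.0525), SLC7A11 (0.0536), MZT1 (0.0550) and DENND3 (0.0576). Having been picked for likeness to a rising gene, their log2 fold changes of 0.52, 0.51, 0.62, 0.59 and 0.50 are a description. IL18, which encodes a cytokine, was at 37.7, 41.4 and 40.9 CPM with si-CNN3#1 and 28.6, 27.6 and 27.8 CPM with si-NC. What these genes share beyond the difference between the groups was not tested. No other member was among the 5.

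Genes of the steps around N-terminal acetylation were given by 5 lists, with 60 of 61 genes tested. Of these 7 were called higher and 1 lower, 13.3% in all, the same share as over all genes, and the median log2 fold change was 0.02. The list of methionine removal and other N-terminal modifications had 0 of 7 called by edgeR, with a median log2 fold change of -0.043. An unadjusted p under 0.05 was found for 3 of them, METAP2 higher and METAP1D and PDF lower. METAP1D and PDF had log2 fold changes of -0.18 and -0.12 (adjusted p = 0.148 and 0.187, edgeR). Over all tested genes, 3978 of 15860 had an unadjusted p under 0.05 in that test. METAP2, a methionine aminopeptidase that exposes NatA substrates, had a log2 fold change of 0.08 (adjusted p = 0.0867, edgeR), and passed the threshold with total-count scaling (0.0287) and with the replicate number as a block (0.0201). Without the third si-CNN3#1 sample it was 0.049. Of 10 factors that meet the chain at the ribosome exit, 1 rose. DNAJC2, a ribosome-bound J protein, had a log2 fold change of 0.16 (adjusted p = 0.00713, edgeR), which became 0.14 (0.0518) without the second si-NC sample, whereas BTF3, of the nascent polypeptide-associated complex, was at -0.0068 (0.909).

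Among 20 genes that modify, read or ubiquitinate N termini, 1 was called. RANBP9, a subunit of the CTLH ubiquitin ligase, was at 45.4 ± 1.72 against 40.0 ± 0.531 CPM (log2 fold change 0.18, adjusted p = 0.00581, edgeR), with an adjusted p of 0.0626 without the second si-CNN3#1 sample. MARCHF6, a ligase of acetylated N termini at the endoplasmic reticulum, had 0.025 (adjusted p = 0.598). Of 10 genes of acetyl-CoA supply, SLC25A1, the mitochondrial citrate carrier, rose by 0.14 (adjusted p = 0.000958) and PDHX, of the pyruvate dehydrogenase complex, fell by 0.16 on the log2 scale (adjusted p = 0.0102, edgeR for both). PDHX lost its call without the third si-NC sample (0.0981). ACLY, which makes cytosolic acetyl-CoA from citrate, was at -0.0084 (adjusted p = 0.89, edgeR), and CRAT, at 11 to 25 counts, was at -0.55 (0.313).

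Of 13 known substrates of N-terminal acetylation and their partners, 4 (30.8%) were called higher and 0 lower, beside 6.17% and 7.14% of all tested genes, with a list median of 0.028 beside 0.0023. Nothing particular to the list is read from these shares. The tropomyosin genes TPM4 and TPM2 had log2 fold changes of 0.12 (adjusted p = 0.000181) and 0.10 (0.0105). Those of the tropomyosin genes TPM1 and TPM3 were 0.17 (0.0513) and -0.017 (0.761), neither called. ACTMAP, the protease that matures actin N termini, had 0.18 (0.00266, edgeR for all). UBE2M, a NEDD8-conjugating enzyme whose acetylated N terminus is bound by DCUN1D1, had 0.12 (adjusted p = 0.0201, edgeR), and its groups overlapped. TPM2 lost its call without the third si-CNN3#1 sample (0.0643) or the second si-NC sample (0.12). UBE2M lost its call without the first si-CNN3#1 sample (0.317) or the third si-NC sample (0.246), in DESeq2 (0.309) and in the 3 limma fits (0.094, 0.0962 and 0.316). ACTB, the most abundant gene of the lists, was at 3814 ± 107 against 3775 ± 64.4 CPM, a log2 fold change of 0.015 (adjusted p = 0.762, edgeR).

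**Figure D5:**
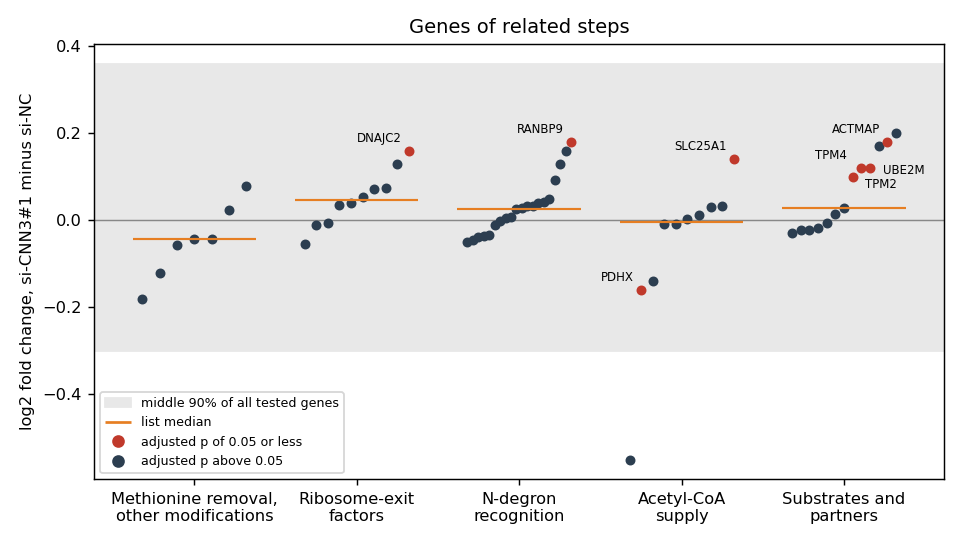
Log2 fold change (vertical axis, si-CNN3#1 minus si-NC) of each tested gene of the 5 lists, sorted within a list, with genes past the threshold in red, list medians as orange lines and the grey band for the middle 90% of all tested genes. The 8 red genes lie inside the band, between -0.16 and 0.18, and none of the lists has a median above 0.046.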

How the data were processed

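RNA sequencing libraries of SiHa cells (3 with si-CNN3#1, 3 with si-NC) were analysed. Per the labels, the submitters' processing notes name TopHat2 2.0.9, Bowtie2 2.0.6, HTSeq and DESeq 1.10.1. The genome build, annotation and strand setting are not given in the sources used here. The authors deposited raw read counts per Ensembl gene and sample, and FPKM values, which equal the count divided by 1 length per gene and by the total. Genes were named by identifier, 45342 of 48162 matching.

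Counts were tested with edgeR 4.0.16 in R 4.3.3 (TMM, filterByExpr, no term besides condition). The Benjamini-Hochberg method was applied over 15860 genes, at a threshold of 0.05. CPM are TMM-normalized. DESeq2 1.42.0, limma 3.58.1 on log2(FPKM + 1) and log2(FPKM + 0.1), other scalings and filters, thinned counts, a replicate block and each sample left out were alternatives, and the annotation lengths used for levels were added after the data were seen. The p-values set the difference between the groups against the spread between these samples within a group. The part of that spread beyond counting noise was small, with a common biological coefficient of variation of 0.02316 in edgeR. The whole spread was wider for genes with few counts, such as HYPK at 1.53 ± 0.477 CPM with si-CNN3#1. The scripts were tested on simulated data.

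The members and lists were chosen with earlier results of these data known. Named genes were the 10 members, NAA11, NAA38, NAA80, HYPK, CNN3, from each list up to 3 called genes of smallest p and the uncalled gene of highest CPM, the 5 nearest profiles, and overlapping genes. UBE2M, CRAT, TPM1, TPM3, METAP1D, PDF, the genes near NAA15 and the seed and motif searches were added after their values were seen. Promoters came from RefSeq and transcripts from GENCODE release 29, on GRCh38.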

Additional observations from a re-analysis of the deposited data

How the results depend on the processing

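The log2 fold change of NAA15 stayed between 0.52 and 0.58 over 17 alternatives, and 0 members were called lower in any of them. The members called higher went from 1 to 2, with NAA16 added, under total-count scaling, with the replicate number as a block, and without the first si-CNN3 or the first si-NC sample (range over samples left out, 1 to 2). NAA38 passed the threshold under upper-quartile and total-count scaling, the block and both limma fits with a filter. NAA25 turned to 0.0082 (total counts), 0.0087, 0.0089 and 0.0087 (limma) and, with 1 sample left out, between -0.024 and 0.0097. NAA30 (-0.064 to 0.0042) and NAA60 (-0.071 to 0.0018) also changed sign with 1 sample left out, all far from the threshold. BTF3 turned to 0.011 (total counts) and 0.01 (all 3 limma fits), ACLY to 0.0089 (total counts), 0.0089, 0.009 and 0.0089 (limma), and with 1 sample left out BTF3 ranged from -0.028 to 0.011, ACLY from -0.028 to 0.0041 and ACTB from -0.0082 to 0.031. RANBP9, PDHX, TPM2, NOCT, UBE2M and SETD7 lost their calls in limma without a filter (adjusted p of 0.0554, 0.111, 0.0946, 0.064, 0.316 and 0.329), and UBE2M and SETD7 also in both limma fits with one. The causes were not tested.

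Genes called numbered 2111, and 1246 in DESeq2, 1363 and 1353 in limma with a filter, 585 in limma without, and 1551 to 1747 with 1 sample left out. Higher genes made up 46.3% of calls, against 60.0% under total counts and 58.6% and 58.3% in limma with a filter. List genes called higher went from 7 to 11 under total counts and the block, to 4 in limma without a filter and to 6 to 8 with 1 sample left out, and those called lower from 1 to 0 in limma without a filter. In si-NC the ratio of NAA15 to NAA10 was 2.27, and 2.86 per exon union and 1.67 per principal transcript. That of NAA15 to NAA16 was 1.33, and 1.10 and 1.28. Same-numbered samples correlated by 0.0105 to 0.0329 in their deviations from the group means, and differently numbered ones by -0.0268 to -0.000801. The main fit had no term for the numbers, and these correlations do not settle whether the samples were paired. Each sample correlated best with its own number, a hint from the data only, and the replicate block raised the calls to 2727.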
